A study of Mus musculus with 18 samples.

Results

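The 41 genes described here drive cells from G2 into the first meiotic or a mitotic metaphase: 5 cyclins, 2 cyclin-dependent kinases, and the phosphatases and kinases that switch them on and off. The rest are Polo, Aurora and NIMA kinases, the chromosomal passenger complex, the spindle checkpoint, the shugoshins and Meikin, regulators and targets of the anaphase-promoting complex, and 2 transcription factors. They were taken by gene symbol from a fixed list, and all 41 were found among the 46863 gene symbols present in all 18 libraries. The rule used no measured values, but the list was chosen with earlier results of these data known. The libraries held poly(A) RNA of male C57BL/6J mice that were knockout (KO) or heterozygous (Het, Zfp541+/-) for Zfp541, a zinc-finger gene of the male germ line. There were 6 groups of 3 libraries: KO and Het testis at postnatal day 14 (P14), KO and Het testis at P18, and KO and Het spermatocytes, the germ cells in meiosis, isolated at P18. All comparisons of genotype were of KO with Het, and a wild-type group was not used here. The labels give neither the design of the KO allele nor the way the spermatocytes were isolated. The labels call the replicates biological and do not say whether each came from its own animal, so the p values measure the spread between these libraries.

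Entry into metaphase is driven by CDK1 bound to A- and B-type cyclins. WEE1 and PKMYT1 hold the kinase back by phosphorylation, and CDC25 phosphatases release it. Polo and Aurora kinases then build the spindle and correct attachments, the checkpoint kinases hold anaphase, and the anaphase-promoting complex with CDC20 or FZR1 ends it by destroying cyclins and securin. In mouse testis the same machinery serves dividing spermatogonia and, days later, spermatocytes leaving prophase I, which add meiotic versions such as cyclin A1, Aurora C, SGO2 and MEIKIN.

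The libraries held 17961474 to 21120802 reads at P14, 12805860 to 16949455 reads in P18 testis and 9256102 to 18308649 reads in P18 spermatocytes. Zfp541 itself lay at 3.20 to 4.96 in KO and 7.58 to 9.18 in Het at P14, at 9.06 to 11.2 in KO and 21.8 to 29.6 in Het in P18 testis, and at 11.5 to 13.3 in KO and 32.4 to 57.1 in Het in spermatocytes. Reads of the gene were present in every KO library, and the part of the gene that the allele removes is not given in the labels. Pachytene markers summed to 782 to 829 in KO and 2356 to 4490 in Het spermatocytes. Markers of spermatogonia were present in the same isolated cells, at a sum of 572 to 678 in KO and 334 to 449 in Het, above the 314 to 349 in KO and 226 to 292 in Het of whole P18 testis. Markers of Sertoli cells summed to 73.2 to 119 in KO and 92.7 to 149 in Het spermatocytes, against 1749 to 2412 over the 6 libraries of P18 testis. Markers of peritubular myoid cells were not depleted in the same way, summing to 56.7 to 197 in KO and 70.0 to 188 in Het spermatocytes, against 110.4 to 160.1 in P18 testis. Het spermatocyte replicate 3 stood apart from the other Het libraries of that set, with chi-square values per gene of 42.2 and 46.1 against them, while they were 10.9 apart.

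In the KO the 41 genes split into a set that was lower at P18 and a set that was higher in isolated spermatocytes. In P18 testis 16 of 40 tested members were lower in KO and 0 higher (40% lower), where 17.9% of the 18796 genes tested were lower and 4.28% higher. In spermatocytes 12 of 40 were higher (30%) and 13 lower (32.5%), where 9.15% of 15908 genes tested were higher and 26% lower. The share of lower members in spermatocytes was close to that of all genes, and the share of higher members was above it. The median log2 difference of the members was −0.18 in P18 testis and 0.02 in spermatocytes, beside 0.02 and −0.06 over all genes tested. A total of 11 members were lower in both P18 sets, 5 passed as lower in testis alone and 2 as lower in spermatocytes alone. Another 12 passed as higher in spermatocytes alone, and 11 passed in neither, counting Wee2, which was not tested. A member counts as higher or lower when its adjusted p in limma was under 0.05. Levels are RPKM or FPKM (reads or fragments per kilobase of gene, scaled to library size) after rescaling between libraries, and the 3 libraries of a group are given in replicate order. Differences are KO minus Het ± SE on the scale of log2(level + 0.5), which understates changes of genes near 0. Gene coordinates are those of GRCm38. In bulk RNA, fewer cells of a type and less RNA per cell cannot be told apart.

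The counts rested in part on single libraries. In P18 testis the 16 lower members became 10 when either of KO replicates 1 and 2 or Het replicate 2 was left out, and 9 without KO replicate 3. In spermatocytes the 25 called members became 15 without Het replicate 1, 12 without KO replicate 2 and 14 without KO replicate 3. Without Het replicate 3, the library that stood apart, they became 19, with 11 higher and 8 in place of 13 lower. A test needed a level of 1 or more in at least 3 libraries. Ccna1 lay below 1 in every KO library, so the counts without a Het library lost it as untested. The calls of Ccnb2, Pkmyt1, Aurka, Cdca8, Bub3, Meikin, Cdc20 and Nek2 in P18 testis passed under every alternative tried. In spermatocytes those of Ccna1, Ccna2, Wee1, Pkmyt1, Aurka, Aurkb, Aurkc, Incenp, Meikin, Pttg1 and Nek2 did. There Ccna1 could be tested under only 12 of the 16 alternatives, none of them without a Het library, and Aurkc under 15. The other 8 calls in P18 testis and 14 in spermatocytes ended under at least 1 alternative. Those of Birc5 and Ttk in both sets and of Sgo2a in spermatocytes were lost most often, under 9 to 11 of 16. Scaling also moved the split: as deposited, 4 members were higher and 14 lower in P18 testis, and 18 higher and 8 lower in spermatocytes, with the median of all genes at 0.12 and 0.17. With median-of-ratios scaling the spermatocyte split was 14 higher and 9 lower. One fit over all 18 libraries gave 10 higher and 14 lower members in P18 testis. Counting could also misplace reads: 10.44% of the 50-mers of Plk1, 10.59% of Cdc20, 11.38% of Ccna2 and 11.91% of Cdc25c also occur in other annotated genes. Among others, antisense genes cover 12.49% of the exons of Ccna2 (Exosc9) and 8.76% of those of Pkmyt1 (Paqr4). The strand setting of the counting is not given. Of the 41 calls in the 2 P18 comparisons, 0 reversed direction under an alternative.

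**Figure D1:**
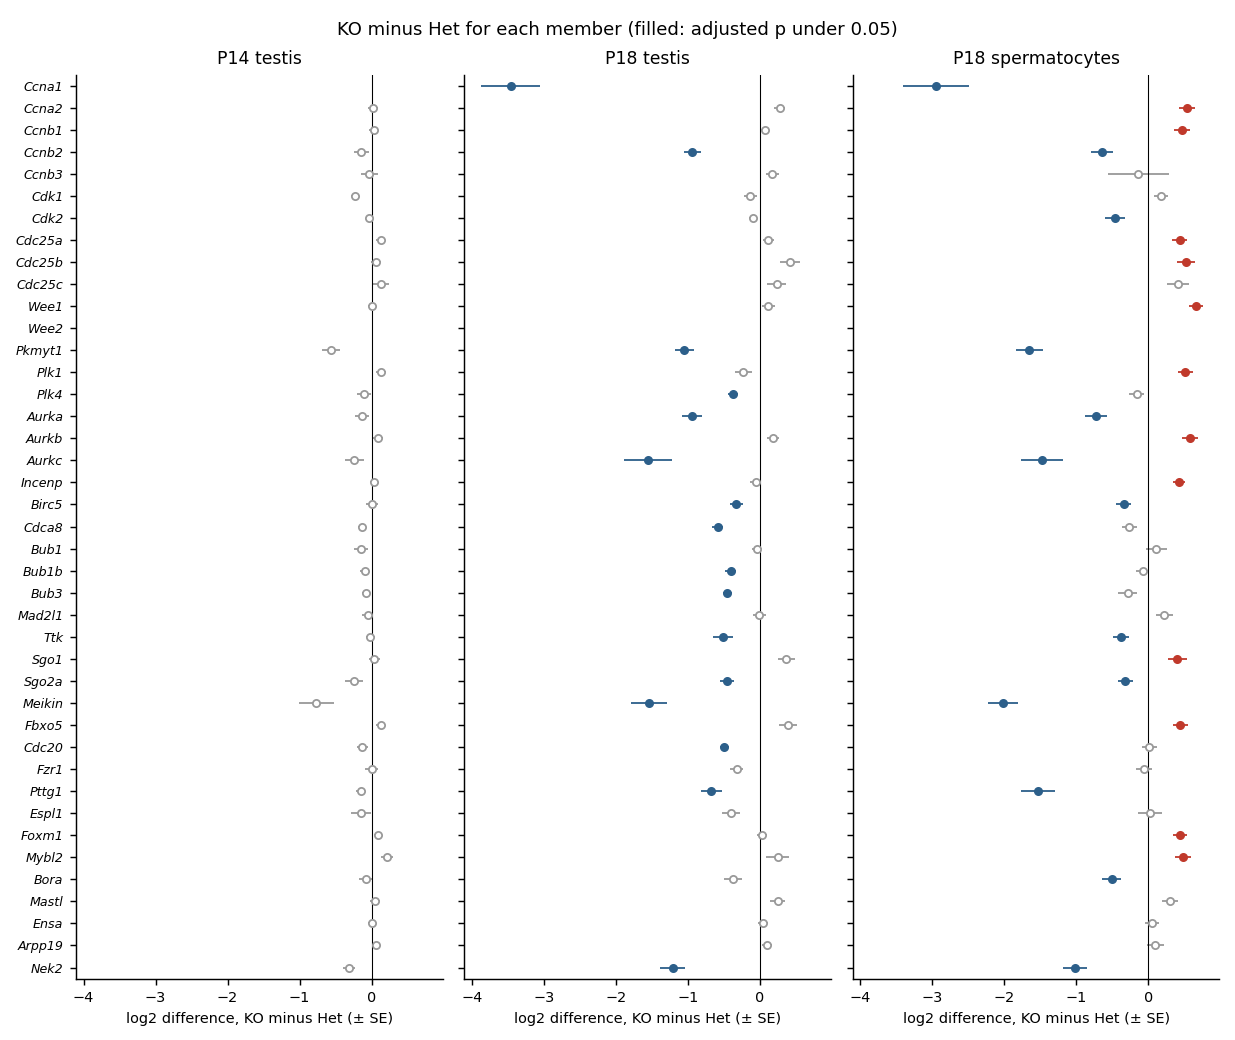
Log2 difference of KO minus Het (± SE, 3 libraries against 3) for each of the 41 genes in P14 testis, P18 testis and P18 spermatocytes, with filled points where the adjusted p was under 0.05 (blue lower, red higher in KO). No point is filled at P14, 16 are filled below 0 in P18 testis, and 13 below and 12 above 0 in spermatocytes; Wee2 was tested in none of the 3, and Ccna1 not at P14.

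The promoters of members from either side are shown because both sides carry the CCAAT box that cell-cycle promoters commonly use. RefSeq (GRCm38.p6) gave 35 promoter windows for 32 of the 41 genes, each the 250 bases before a transcription start. CCAAT on either strand was in 68.57% of the members' windows and in 33.85% of the 32851 windows of all genes. GGGCGG, the GC box, was in 62.86% and 32.74%. The cell-cycle homology element TTTGAA was in 17.14% and 15.99%, and its variant TTCGAA in 2.857% and 1.336%. The MYB core AACNG was in 85.71% and 74.19%. Windows were found for 9 of the 11 genes lower in both P18 sets (10 windows) and for 7 of the 12 genes higher in KO spermatocytes (7 windows). CCAAT was in 5 of the 7 windows of higher genes and in 6 of the 10 of lower genes. GGGCGG was in 7 of the 7 and in 5 of the 10, and TTTGAA in 0 of 7 and 1 of 10. In the windows printed here, written 5′ to 3′ toward the start, capitals mark these 3 motifs (CCAAT, the GC box and TTTGAA) or their reverse complements. The window of Aurka (Aurora A, lower in KO) lies at chr2:172370571-172370820 on the minus strand, and that of Ccnb2 (cyclin B2, lower) at chr9:70421555-70421804 on the minus strand. That of Plk1 (Polo-like kinase 1, higher in KO spermatocytes) lies at chr7:122159185-122159434 on the plus strand, and that of Cdc25a (a CDC25 phosphatase, higher) at chr9:109875329-109875578 on the plus strand.
Aurka: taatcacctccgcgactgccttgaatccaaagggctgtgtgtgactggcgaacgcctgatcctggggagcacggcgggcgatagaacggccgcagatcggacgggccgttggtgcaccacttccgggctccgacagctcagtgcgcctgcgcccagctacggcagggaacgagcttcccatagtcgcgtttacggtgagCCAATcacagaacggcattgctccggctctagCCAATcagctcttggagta
Ccnb2: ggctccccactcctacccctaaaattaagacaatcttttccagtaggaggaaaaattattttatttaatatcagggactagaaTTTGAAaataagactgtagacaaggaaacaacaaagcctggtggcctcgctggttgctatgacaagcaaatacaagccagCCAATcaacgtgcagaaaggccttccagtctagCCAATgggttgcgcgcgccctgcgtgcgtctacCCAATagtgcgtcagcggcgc
Plk1: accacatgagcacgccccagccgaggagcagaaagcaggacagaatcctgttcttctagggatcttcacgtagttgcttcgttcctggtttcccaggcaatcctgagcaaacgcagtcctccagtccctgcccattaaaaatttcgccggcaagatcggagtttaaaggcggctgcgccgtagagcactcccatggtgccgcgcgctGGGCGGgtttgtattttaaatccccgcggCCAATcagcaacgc
Cdc25a: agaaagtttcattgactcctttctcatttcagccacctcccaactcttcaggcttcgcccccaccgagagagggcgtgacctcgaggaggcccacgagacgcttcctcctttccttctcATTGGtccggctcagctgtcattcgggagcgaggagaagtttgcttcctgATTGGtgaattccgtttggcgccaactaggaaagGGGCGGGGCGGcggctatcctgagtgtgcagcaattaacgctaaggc
CCAAT begins 51 and 19 bases before the start of Aurka, 87, 54 and 21 before that of Ccnb2, 14 before that of Plk1, and 131 and 81 before that of Cdc25a. The GC box begins 43 bases before the start of Plk1, and 47 and 42 before that of Cdc25a, where the 2 matches overlap by 1 base. A match in a window is a match of letters and was not tested as a bound site.

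Among the cyclins, the meiotic cyclin Ccna1 and the B-type cyclin Ccnb2 were lower in KO, while Ccna2 and Ccnb1, the forms of dividing cells, were higher in KO spermatocytes. Ccna1 (ENSMUSG00000027793.6, chromosome 3, 55045469 to 55055501), which mouse spermatocytes need to leave prophase I, had levels of 0.432, 0.309 and 0.370 in KO, against 17.6, 8.22 and 5.06 in Het P18 testis. In spermatocytes its levels were 0.423, 0.564 and 0.504 in KO, against 3.995, 5.47 and 16.3 in Het. Every KO library lay below every Het library in both sets, and the Het libraries themselves spread more than 3-fold. The log2 differences were −3.46 ± 0.41, adjusted p = 0.00401, in P18 testis and −2.95 ± 0.46, adjusted p = 0.00292, in spermatocytes. With voom on recovered reads the call in P18 testis ended (adjusted p = 0.0541). It could be tested under 13 alternatives in P18 testis and 12 in spermatocytes, none of them without a Het library. At P14 the gene was near the limit of detection in both genotypes, with 4 to 7 reads per KO library and 5 to 14 per Het library, and was not tested. An antisense gene covers 10.08% of its exons, and the strand setting of the counting is not given in the sources used here. Reads in that overlap cannot be told apart from those of the antisense gene. Ccnb2 (ENSMUSG00000032218.7, chromosome 9, 70407692 to 70421547), one of the B-type partners of CDK1, had levels of 18.3, 19.9 and 18.3 in KO, against 43.5, 34.9 and 32.03 in Het P18 testis. In spermatocytes they were 38.3, 38.4 and 38.8 in KO, against 59.4, 48.7 and 76.1 in Het. The genotypes did not overlap in either set (−0.94 ± 0.12, adjusted p = 0.00435, and −0.64 ± 0.16, adjusted p = 0.018).

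Ccnb1 (ENSMUSG00000041431.16, chromosome 13, 100778650 to 100786570), the essential B-type cyclin of mitosis, had levels of 18.3, 18.7 and 16.2 in KO, against 12.4, 13.9 and 11.8 in Het spermatocytes. Its log2 difference there was 0.46 ± 0.11, adjusted p = 0.0145, and in P18 testis it was 0.07 (adjusted p = 0.454). A share of 23.4% of its 50-mers also occurs in other annotated genes, chiefly the pseudogene Ccnb1-ps. Ccna2 (ENSMUSG00000027715.9, chromosome 3, 36564865 to 36572150), the A-type cyclin of S and G2 phase in dividing cells, had levels of 33.6, 35.4 and 33.04 in KO, against 23.9, 25.95 and 20.5 in Het spermatocytes, a log2 difference of 0.53 ± 0.11, adjusted p = 0.00888. All KO libraries of both genes lay above all Het libraries in spermatocytes. In P18 testis the log2 difference of Ccna2 was 0.27 (adjusted p = 0.0554). Ccnb3, a B-type cyclin of early meiosis, had levels of 29.3, 10.5 and 13.8 in KO, against 26.8, 19.5 and 11.03 in Het spermatocytes. Its libraries spread widely within each genotype and overlapped, and its difference was −0.14 ± 0.43, adjusted p = 0.829.

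**Figure D2:**
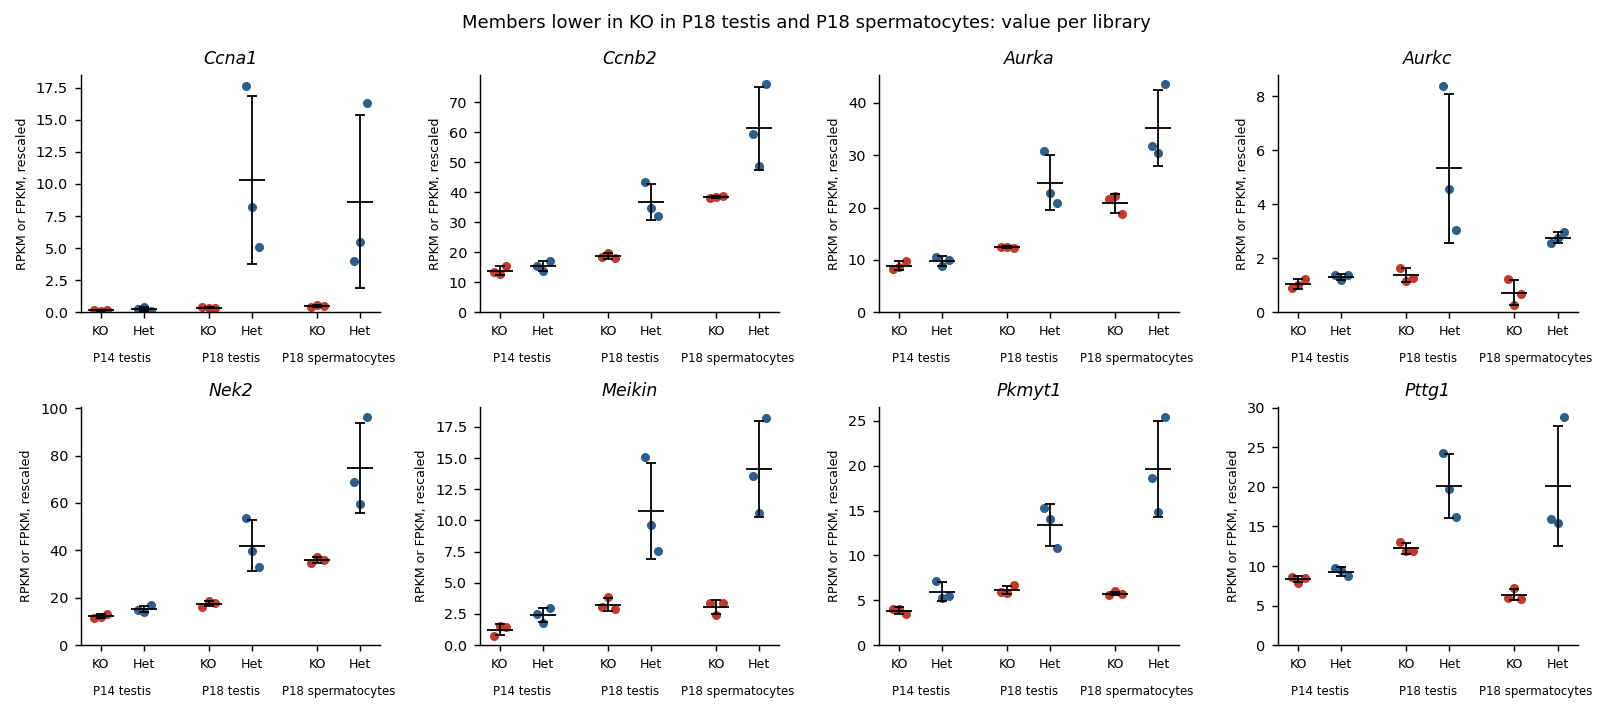
Level (RPKM or FPKM after rescaling within each set of libraries) in each library of the 6 groups for 8 members that were lower in KO in both P18 sets; points are libraries, bars the mean ± SD of 3. At P18 the Het libraries stand above the KO libraries in every panel, with Het replicate 1 highest in testis and Het replicate 3 highest in spermatocytes.

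The kinase Cdk1 passed the test in no set, while several of its regulators did. Its levels in spermatocytes were 9.62, 10.5 and 9.86 in KO, against 8.45, 8.90 and 9.14 in Het, a log2 difference of 0.17 ± 0.10, adjusted p = 0.212, with every KO library above every Het library. In P18 testis its difference was −0.13 (adjusted p = 0.343). Cdk2, which in spermatocytes sits at crossovers and telomeres, was lower in KO spermatocytes, with levels of 21.5, 18.1 and 17.8 in KO, against 27.1, 22.2 and 30.8 in Het (−0.46 ± 0.14, adjusted p = 0.0398). Its difference in P18 testis was −0.10 (adjusted p = 0.195). The inhibitory kinases parted. Pkmyt1 (ENSMUSG00000023908.8, chromosome 17, 23726336 to 23736735), the membrane-bound inhibitor of CDK1, had levels of 5.97, 5.81 and 6.72 in KO, against 15.3, 14.1 and 10.8 in Het P18 testis. In spermatocytes they were 5.56, 5.99 and 5.71 in KO, against 18.6, 14.9 and 25.4 in Het. The highest KO library was below the lowest Het library in both, by log2 differences of −1.05 ± 0.14, adjusted p = 0.00474, and −1.65 ± 0.18, adjusted p = 0.000677. Wee1 (ENSMUSG00000031016.9, chromosome 7, 110122046 to 110143286), the nuclear inhibitor, moved the other way in spermatocytes, with levels of 31.4, 35.996 and 32.6 in KO, against 22.3, 20.4 and 20.1 in Het (0.66 ± 0.10, adjusted p = 0.0022). In P18 testis its genotypes overlapped (0.12, adjusted p = 0.374). Wee2, the oocyte member of the family, stayed at or below 0.307 in all 18 libraries and was not tested.

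Of the 3 CDC25 phosphatases, Cdc25a and Cdc25b were higher in KO spermatocytes. Cdc25a had levels of 9.92, 11.2 and 11.7 in KO, against 8.32, 7.55 and 7.98 in Het (0.43 ± 0.11, adjusted p = 0.018). Cdc25b had levels of 7.40, 9.17 and 8.01 in KO, against 5.34, 6.08 and 5.15 in Het (0.53 ± 0.13, adjusted p = 0.0165). Neither genotype overlapped the other for these genes. Cdc25c, without which mice are viable and fertile, differed by 0.41 in spermatocytes and was not called (adjusted p = 0.0721). Bora, the cofactor with which Aurora A activates PLK1, was lower in KO spermatocytes, at 9.98, 8.39 and 8.22 in KO, against 12.6, 11.3 and 14.7 in Het (−0.51 ± 0.13, adjusted p = 0.0228). In P18 testis its difference of −0.37 missed the threshold (adjusted p = 0.0687). The Greatwall branch, in which MASTL phosphorylates ENSA and ARPP19 to block the phosphatase that opposes CDK1, passed in no set. In spermatocytes the log2 differences were 0.30 ± 0.11 for Mastl, 0.05 ± 0.09 for Ensa and 0.10 ± 0.11 for Arpp19 (adjusted p = 0.0706, 0.719 and 0.543 in that order).

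The Aurora kinases and the centrosome kinase Nek2 held some of the deepest falls, and Plk1 and Aurkb lay on the higher side. Nek2 (ENSMUSG00000026622.15, chromosome 1, 191821444 to 191833050), which parts the centrosomes before division, had levels of 16.2, 18.5 and 17.9 in KO, against 53.6, 39.7 and 32.8 in Het P18 testis. In spermatocytes they were 34.7, 37.2 and 35.9 in KO, against 69.05, 59.4 and 96.1 in Het. Its lowest Het library exceeded its highest KO library in both sets (−1.21 ± 0.18, adjusted p = 0.00628, and −1.02 ± 0.17, adjusted p = 0.0041). Aurka (ENSMUSG00000027496.15, chromosome 2, 172356190 to 172370535), the spindle-pole Aurora, had levels of 12.5, 12.6 and 12.2 in KO, against 30.7, 22.7 and 20.9 in Het P18 testis. In spermatocytes they were 21.5, 22.1 and 18.8 in KO, against 31.8, 30.4 and 43.6 in Het. Neither set overlapped, with log2 differences of −0.95 ± 0.14, adjusted p = 0.00691, and −0.73 ± 0.15, adjusted p = 0.0097. Aurkc, the meiotic catalytic subunit of the chromosomal passenger complex, had levels of 1.66, 1.16 and 1.29 in KO, against 8.40, 4.57 and 3.05 in Het P18 testis (−1.55 ± 0.33, adjusted p = 0.0219). In spermatocytes its levels were 1.22, 0.283 and 0.694 in KO, against 2.55, 2.76 and 2.99 in Het (−1.48 ± 0.29, adjusted p = 0.00765). Its values are uncertain, since 54.83% of its 50-mers also occur in other annotated genes, chiefly Gm12463.

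Aurkb (ENSMUSG00000020897.12, chromosome 11, 69045647 to 69051664), the mitotic catalytic subunit of the same complex, had levels of 15.3, 17.9 and 14.9 in KO, against 10.3, 11.4 and 10.001 in Het spermatocytes, a log2 difference of 0.57 ± 0.11, adjusted p = 0.00691. Incenp, the scaffold of the complex, had levels of 41.8, 43.2 and 42.7 in KO, against 31.9, 32.9 and 30.1 in Het (0.42 ± 0.09, adjusted p = 0.00806). For both genes every KO library was above every Het library in spermatocytes, while in P18 testis the differences were 0.18 (adjusted p = 0.173) and −0.06 (adjusted p = 0.6). Of the targeting subunits, Birc5 was lower in both P18 sets and Cdca8 in testis. Birc5 (survivin) had levels of 7.77, 7.31 and 8.46 in KO, against 10.7, 10.2 and 9.09 in Het P18 testis (−0.33 ± 0.09, adjusted p = 0.043). Its levels in spermatocytes were 11.8, 10.4 and 10.6 in KO, against 13.6, 13.3 and 15.04 in Het (−0.34 ± 0.10, adjusted p = 0.0373). Cdca8 (borealin) had levels of 10.7, 12.2 and 11.4 in KO, against 18.8, 16.5 and 17.02 in Het P18 testis (−0.59 ± 0.08, adjusted p = 0.00487). Its difference in spermatocytes was −0.26 (adjusted p = 0.0957). Plk1 (ENSMUSG00000030867.7, chromosome 7, 122159439 to 122169873), a kinase of mitotic and meiotic entry, had levels of 44.1, 47.4 and 42.8 in KO, against 30.3, 35.3 and 28.2 in Het spermatocytes (0.52 ± 0.11, adjusted p = 0.0103). In P18 testis, where the genotypes overlapped, its levels were 10.2, 12.5 and 12.9 in KO, against 15.8, 13.3 and 12.9 in Het (−0.23, adjusted p = 0.206). Plk4, which starts centriole duplication, was lower in KO P18 testis, at 9.48, 9.63 and 8.71 in KO, against 13.03, 11.5 and 11.9 in Het (−0.37 ± 0.07, adjusted p = 0.0164).

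**Figure D3:**
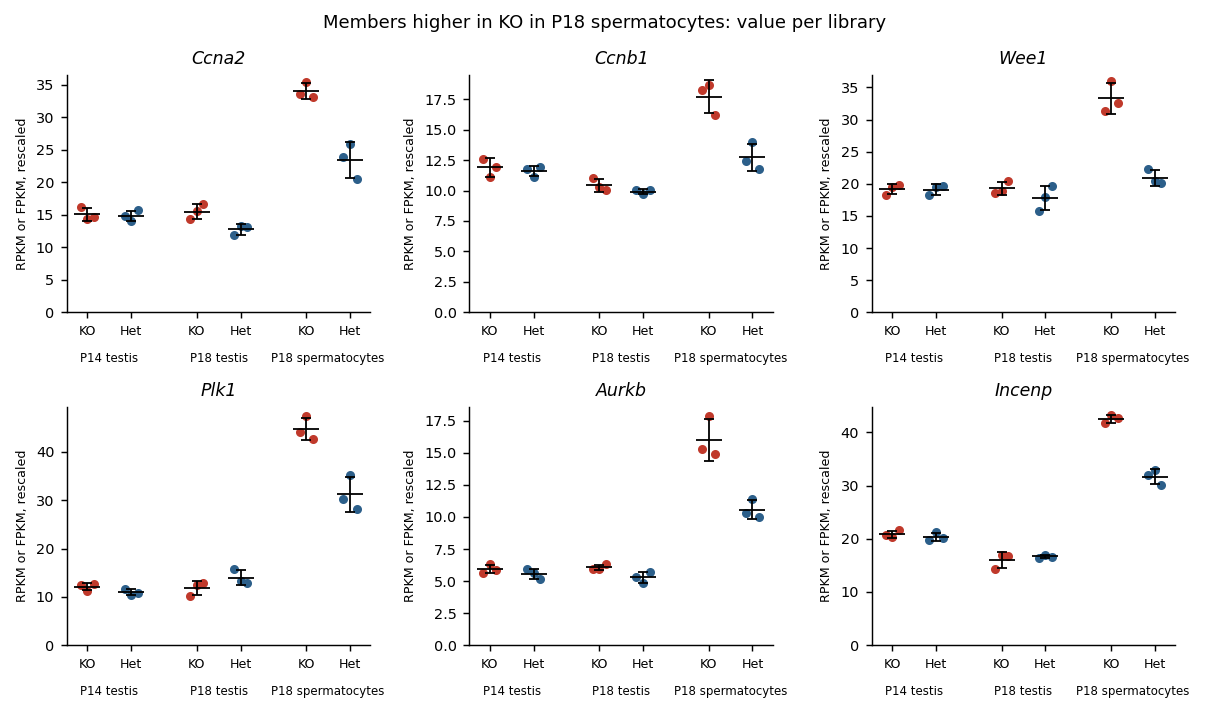
Level (RPKM or FPKM after rescaling within each set of libraries) in each library of the 6 groups for 6 members that were higher in KO spermatocytes; points are libraries, bars the mean ± SD of 3. The 3 KO spermatocyte libraries stand above the 3 Het ones in every panel, and no difference in testis passed the test at either age.

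At the centromere, Meikin had the largest fall among the members in spermatocytes after Ccna1. Meikin (ENSMUSG00000020332.7, chromosome 11, 54370652 to 54426790), which joins sister kinetochores in meiosis I, had levels of 3.03, 3.87 and 2.87 in KO, against 15.1, 9.67 and 7.53 in Het P18 testis. In spermatocytes they were 3.36, 2.44 and 3.38 in KO, against 13.5, 10.6 and 18.2 in Het. No KO library reached a Het library in either set (−1.54 ± 0.25, adjusted p = 0.009, and −2.02 ± 0.21, adjusted p = 0.000537). The shugoshins, which protect centromeric cohesin, parted. Sgo2a, the meiotic one in mouse, had levels of 7.66, 7.74 and 7.43 in KO, against 12.4, 9.55 and 10.1 in Het P18 testis (−0.46 ± 0.10, adjusted p = 0.024). Its spermatocyte levels were 13.99, 12.4 and 12.3 in KO, against 16.97, 14.9 and 16.7 in Het (−0.32 ± 0.10, adjusted p = 0.0479). Sgo1, the mitotic one, was higher in KO spermatocytes, at 8.24, 7.66 and 7.42 in KO, against 5.52, 6.66 and 5.18 in Het (0.40 ± 0.13, adjusted p = 0.0442). The Sgo2a value is uncertain because 33.97% of its 50-mers also occur elsewhere and the antisense gene Kctd18 covers 35.04% of its exons.

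Of the 5 spindle checkpoint genes, Ttk, Bub1b and Bub3 were lower in KO P18 testis. Ttk, the MPS1 kinase that starts checkpoint signalling, had levels of 7.12, 7.43 and 6.49 in KO, against 12.4, 10.1 and 8.46 in Het (−0.51 ± 0.14, adjusted p = 0.0442). In spermatocytes it was lower as well, at 15.8, 16.3 and 14.001 in KO, against 20.3, 18.01 and 22.1 in Het (−0.38 ± 0.11, adjusted p = 0.0359). Bub1b, a subunit of the mitotic checkpoint complex, had levels of 15.6, 16.2 and 15.7 in KO, against 23.4, 21.2 and 19.3 in Het P18 testis (−0.41 ± 0.08, adjusted p = 0.015). Bub3, its partner there, had 7.29, 7.70 and 7.63 in KO, against 10.2, 10.97 and 10.4 in Het (−0.46 ± 0.06, adjusted p = 0.00541). In each of these testis comparisons the KO libraries were below all Het libraries. In spermatocytes the differences of Bub1b and Bub3 were −0.08 and −0.29 (adjusted p = 0.547 and 0.126). Bub1, the kinase that marks centromeres for shugoshin, and Mad2l1, the inhibitor of CDC20, passed in neither. Bub1 differed by −0.05 in P18 testis and by 0.11 in spermatocytes, and Mad2l1 by −0.01 and 0.22.

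Among the genes that time anaphase, securin fell most. Pttg1 (ENSMUSG00000020415.16, chromosome 11, 43420250 to 43426251), the securin that inhibits separase, had levels of 13.04, 11.8 and 11.9 in KO, against 24.3, 19.8 and 16.2 in Het P18 testis. In spermatocytes they were 6.02, 7.16 and 5.88 in KO, against 15.97, 15.4 and 28.9 in Het. Its log2 differences were −0.67 ± 0.14, adjusted p = 0.0212, and −1.53 ± 0.24, adjusted p = 0.00303, with no overlap of genotypes in either set. Espl1, the separase itself, did not pass (−0.40 ± 0.12 and 0.03 ± 0.17, adjusted p = 0.0625 and 0.916). Cdc20, the activator of the anaphase-promoting complex in metaphase, was lower in KO P18 testis, with levels of 49.1, 55.1 and 52.7 in KO, against 77.1, 72.1 and 72.2 in Het (−0.49 ± 0.07, adjusted p = 0.00478). In spermatocytes its genotypes overlapped, at 123, 135 and 124 in KO, against 121, 118 and 139.9 in Het (0.02, adjusted p = 0.92). Fzr1, the activator of late mitosis and G1, had differences of −0.32 (adjusted p = 0.0512) and −0.06 (adjusted p = 0.696). Fbxo5 (EMI1), an inhibitor of the complex in dividing cells, was higher in KO spermatocytes, at 9.54, 8.79 and 9.83 in KO, against 6.87, 6.68 and 6.71 in Het (0.45 ± 0.10, adjusted p = 0.0127).

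Both transcription factors of the list were higher in KO spermatocytes. Foxm1, an activator of G2 and mitotic genes, had levels of 25.1, 28.2 and 24.99 in KO, against 19.9, 19.3 and 18.1 in Het (0.44 ± 0.10, adjusted p = 0.0109). Mybl2 (B-MYB), which acts with the MuvB complex at the same genes, had levels of 7.43, 7.73 and 7.46 in KO, against 5.23, 5.71 and 4.85 in Het (0.48 ± 0.11, adjusted p = 0.014), and 19.34% of its 50-mers also occur elsewhere. In P18 testis they differed by 0.03 and 0.24 (adjusted p = 0.807 and 0.296). The 12 members higher in KO spermatocytes moved beside the spermatogonial marker list, of which 6 of 12 genes were higher there and 0 lower (median log2 difference 0.55). The members lower in both P18 sets moved beside the late pachytene and diplotene marker list, which shares Ccna1 and Aurka with them and was lower in KO for 8 of its 8 tested genes in each set. That list summed to 62.2 to 66.1 in KO and 231 to 469 in Het P18 testis, and to 76.9 to 80.4 in KO and 355 to 774 in Het spermatocytes. In P18 testis 4 of 11 tested spermatogonial markers, 4 of 9 macrophage markers, 4 of 10 preleptotene to zygotene markers and 2 of 15 Sertoli markers were higher in KO, where 4.28% of all genes were. Of the macrophage list 1 gene was lower there, and of the preleptotene to zygotene list 2. The Sertoli list summed to 2361 to 2412 in KO and 1749 to 2204 in Het. The part of cell composition in these results was not tested.

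At P14, when the first spermatocytes are in early pachytene, no member passed the test among 39 tested by limma, where 0.0113% of 17700 genes were higher and 0.153% lower in KO. With voom on recovered reads 1 member passed, Nek2, lower in KO. At an unadjusted p under 0.05 limma gave 6 members, 5 lower and 1 higher, where 6.14% of all genes were lower and 2.97% higher. The genotypes did not overlap for 9 of the 39 members, where they did not for 16.1% of all genes tested. Meikin had levels of 0.726, 1.51 and 1.47 in KO, against 2.51, 1.79 and 2.95 in Het at P14 (−0.76 ± 0.24, adjusted p = 0.38). Pkmyt1 had 4.06, 4.07 and 3.45 in KO, against 7.17, 5.26 and 5.45 in Het (−0.56 ± 0.13, adjusted p = 0.192). Nek2 had 11.6, 11.7 and 13.2 in KO, against 14.9, 14.1 and 16.7 in Het (−0.31 ± 0.08, adjusted p = 0.266). Cdk1 (−0.23), Cdca8 (−0.14) and, higher in KO, Mybl2 (0.22) were the others. These 6 are among the 9 whose genotypes did not overlap, and in limma 0 of them passed adjustment over all genes.

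The difference between the genotype effects was tested directly. Between fractions at P18, 6 members differed, with a KO effect more positive in spermatocytes than in testis, where 0.121% of 19855 genes did so and 0.247% the opposite: Plk1 (0.97 ± 0.16), Wee1 (0.76 ± 0.13), Cdc20 (0.73 ± 0.12), Incenp (0.71 ± 0.11), Foxm1 (0.63 ± 0.11) and Ccnb1 (0.61 ± 0.10), with adjusted p from 0.0435 to 0.0486. The median of all genes in this contrast was 0.12 and moved to −0.03 with median-of-ratios scaling, under which 0 members passed. The median of the members was 0.42 with both fractions rescaled together. It was 0.20 with rescaling within each set, under which 0 members passed as well. The count was 0 without any one of 9 of the 12 libraries, 1 without Het testis replicate 1, 3 without Het spermatocyte replicate 3 and 6 without Het spermatocyte replicate 2. Between ages in testis, 6 members had a KO effect more negative at P18 than at P14, where 7.91% of 19305 genes did so and 0.368% the opposite: Ccna1 (−3.20 ± 0.49), Nek2 (−0.92 ± 0.22), Aurka (−0.83 ± 0.19), Ccnb2 (−0.81 ± 0.18), Cdca8 (−0.47 ± 0.10) and Bub3 (−0.39 ± 0.07), with adjusted p from 0.00549 to 0.0307. This count was 2 without P14 Het replicate 2 or P18 Het replicate 2, 3 without P14 KO replicate 3, P18 KO replicate 1 or P18 KO replicate 3, and 10 without P18 Het replicate 3. Ccna1 entered this fit through the P18 Het libraries alone and was near the limit of detection at P14. Its interaction with age ended with voom on recovered reads (adjusted p = 0.26).

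Between P14 and P18 the first wave of spermatocytes advances through pachytene, and the course of the members with age was tested on its own. It could be tested for 33 members whose annotated length was the same in the tables of both ages. The P14 values were RPKM and the P18 testis values FPKM, so age and kind of table cannot be told apart. In KO testis 2 of the 33 were higher at P18 than at P14 (19.8% of 16210 genes were), Meikin (0.95 ± 0.27) and Cdc20 (0.44 ± 0.08), and 6 were lower (24.4% of all genes). Ccna1, at 0.338 ± 0.0541 in P18 KO and 0.169 ± 0.0481 in P14 KO, differed by 0.32 ± 0.35, adjusted p = 0.476 (means ± SD, n = 3, of the 12 testis libraries rescaled together). In Het testis 14 were higher at P18 (42.4%, where 31.2% of all genes were higher) and 11 were lower (33.3%, where 30.9% were). Meikin averaged 10.1 ± 3.71 at P18 and 2.63 ± 0.660 at P14 in Het (SD, n = 3 each), a log2 difference of 1.72 ± 0.27, adjusted p = 0.000285. Nek2 averaged 39.3 ± 10.2 and 16.6 ± 1.64 (1.19 ± 0.15, adjusted p = 6.07e-05), and Ccna1 averaged 9.65 ± 6.19 and 0.290 ± 0.161 (3.52 ± 0.35, adjusted p = 6.23e-06). Aurkc (1.40), Aurka (1.07), Ccnb2 (1.00), Pttg1 (0.84) and Cdc20 (0.82) were also among the higher ones. The lower ones included Cdc25b (−0.57), Fbxo5 (−0.53), Sgo1 (−0.52), Ccnb1 (−0.43) and Ccna2 (−0.43). On the values as deposited, 16 members were higher and 0 lower in KO, and 18 higher and 6 lower in Het, with the median of all genes at 0.29 and 0.18. The KO count of 8 was 4 without P14 KO replicate 3, 5 without P14 KO replicate 2 or P18 KO replicate 2, and 13 without P18 Het replicate 1.

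The age course in Het testis and the KO effect in spermatocytes come from different libraries and were set side by side. Of the 14 members higher at P18 in Het testis, 9 were lower in KO spermatocytes and 0 higher (64.3%). Of all genes higher with age, 55.8% were lower in KO spermatocytes. Of the 11 members lower at P18, 8 were higher in KO spermatocytes and 0 lower (72.7%), where 22.9% of all genes lower with age were higher there. Taken from the other list, 9 of the 10 members lower in KO spermatocytes that could be set against age had risen with age (90%, and 85.5% for all genes), and 8 of 11 higher ones had fallen with age (72.7%, and 60.5% for all genes).

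**Figure D4:**
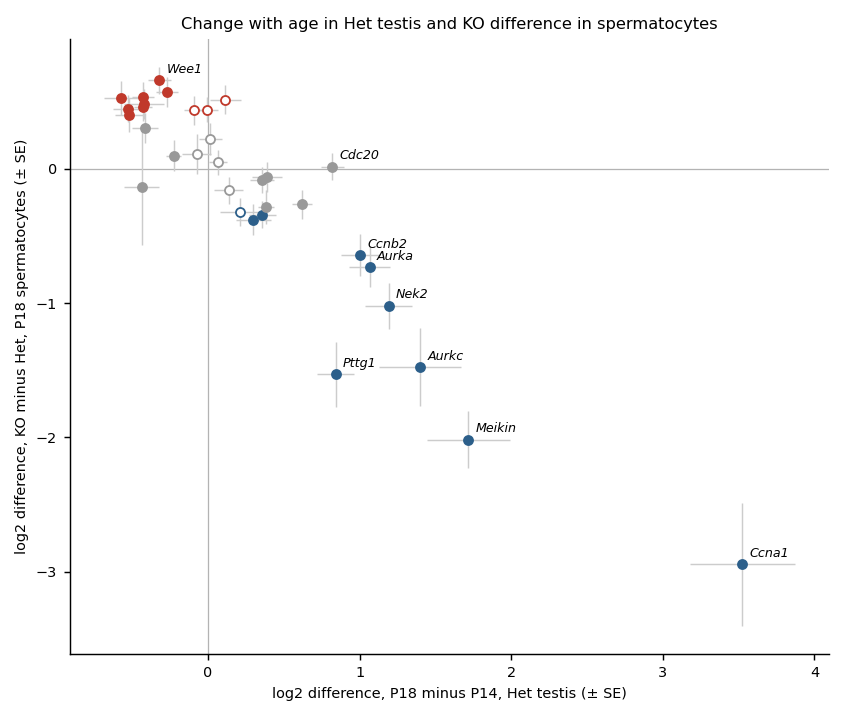
Log2 difference of P18 minus P14 in Het testis (x axis) against KO minus Het in P18 spermatocytes (y axis) for the 33 members tested in both, each ± SE; blue points were lower and red points higher in KO spermatocytes, grey points passed neither way, and filled points changed with age. Members that rose with age lie at or below 0 on the y axis down to Ccna1, apart from Cdc20 at 0.02, and members that fell with age lie above it, apart from Ccnb3 at −0.14.

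In the isolated cells most members stood higher than in whole testis. The spermatocyte values were RPKM and the P18 testis values FPKM, so fraction and kind of table cannot be told apart. At P18 in KO, 34 of 40 were higher in spermatocytes and 1 lower (30.8% and 31.5% of 19855 genes), and in Het 31 were higher and 0 lower (25.5% and 32.2%). Plk1 averaged 51.9 ± 1.95 in KO spermatocytes and 11.2 ± 1.45 in KO testis (2.17 ± 0.12), and 30.6 ± 3.22 and 13.04 ± 1.60 in Het (1.20 ± 0.12). The member lower in KO spermatocytes than in KO testis was Pttg1 (−0.62 ± 0.22, adjusted p = 0.03), which in Het differed by 0.03. Ccna1 (−0.25) and Aurkc (−0.67) passed in neither direction in Het. The spermatogonial marker list was higher in Het spermatocytes for 10 of its 12 genes.

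Other genes of the division machinery were followed in 8 lists that exclude the 41 members. Over all genes tested, 17.9% were lower and 4.28% higher in KO P18 testis, and 26% lower and 9.15% higher in KO spermatocytes. In limma 0 genes of these lists passed at P14. Of 23 regulators of the spermatocyte G2 to metaphase transition that were tested, 9 were lower in KO P18 testis and 10 in KO spermatocytes. In each set 0 were higher, so most of the list passed in neither direction. Both counts include Zfp541 itself, the knocked-out gene. The list also shares Hspa2, Sycp3, Tcfl5 and Tesmin with the pachytene and late pachytene marker lists. Hspa2, the chaperone that activates CDK1 in mouse spermatocytes, averaged 122 ± 13.1 in KO and 498 ± 160.4 in Het spermatocytes (−1.99 ± 0.22, adjusted p = 0.000707). Of the kinetochore and centromere list 6 of 30 were lower in each P18 set, and 0 were higher in testis and 3 in spermatocytes, shares near or below those of all genes. Haspin, the kinase that recruits the chromosomal passenger complex, averaged 4.89 ± 0.318 in KO and 56.8 ± 29.004 in Het spermatocytes (−3.30 ± 0.31, adjusted p = 0.000327), and 4.53 ± 0.365 in KO and 34.3 ± 16.5 in Het P18 testis (−2.68 ± 0.33). Of the list of other subunits, enzymes and inhibitors of the anaphase-promoting complex, 3 of 22 were lower in testis and 5 of 21 in spermatocytes, with 0 higher in testis and 3 in spermatocytes, and its lower shares were again no larger than those of all genes. Fbxo43 (EMI2), its inhibitor in meiosis, averaged 1.87 ± 0.334 in KO and 8.18 ± 1.83 in Het spermatocytes (−1.86 ± 0.20, adjusted p = 0.000496), while its mitotic relative Fbxo5 was higher. Mad2l2, a subunit of DNA polymerase zeta that can bind CDC20 and FZR1, averaged 9.92 ± 1.04 in KO and 41.5 ± 15.3 in Het spermatocytes (−1.96 ± 0.24).

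Of 28 genes tested in a list of other cyclins, cyclin-dependent kinases and their inhibitors, 7 were lower and 2 higher in KO P18 testis, and 8 lower and 9 higher in spermatocytes. The deepest fall counted there was that of Ppp1r42, a regulatory subunit of protein phosphatase 1 and not a cyclin, kinase or kinase inhibitor, which averaged 0.172 ± 0.0976 in KO and 9.24 ± 4.28 in Het spermatocytes (−3.78 ± 0.30, adjusted p = 0.000177). Cdkn2c, the p18 inhibitor of CDK4 and CDK6, averaged 12.04 ± 0.380 in KO and 46.9 ± 17.02 in Het spermatocytes (−1.86 ± 0.23, adjusted p = 0.00108). Cyclin D1 (Ccnd1), which acts with those kinases in G1, averaged 31.01 ± 3.18 in KO and 18.9 ± 1.80 in Het (0.70 ± 0.12, adjusted p = 0.00388). Of the spindle and centrosome list 5 of 31 were lower and 2 higher in testis, and 2 of 32 lower and 3 higher in spermatocytes. Prc1, which bundles midzone microtubules, differed by −0.79 ± 0.11 in P18 testis and by −0.50 ± 0.12 in spermatocytes, and the motor Kif4 by 0.36 ± 0.08 and 0.48 ± 0.13. Of the 14 condensation genes 2 were lower and 2 higher in each set, among them the condensin subunit Smc4 (−0.52 ± 0.15 in spermatocytes). Of 18 phosphatase genes tested 3 were lower and 2 higher in testis, and 2 lower and 5 higher in spermatocytes. Ppp1cc, which encodes the PP1 gamma catalytic subunit, averaged 24.5 ± 2.34 in KO and 44.8 ± 11.4 in Het spermatocytes (−0.83 ± 0.18), and Ppp1ca averaged 94.3 ± 8.85 in KO and 57.5 ± 6.25 in Het (0.71 ± 0.12). Of 23 MuvB, MYB and E2F genes 5 were lower and 4 higher in testis, and 4 lower and 5 higher in spermatocytes. The lower shares were near or below those of all genes. The higher shares in both sets were above those of all genes (4.28% and 9.15%). So were the higher shares of the cyclin and phosphatase lists in spermatocytes. Mybl1 (A-MYB), the activator of the pachytene programme and, like Hspa2, also on the pachytene marker list, averaged 20.1 ± 2.39 in KO and 34.7 ± 7.28 in Het spermatocytes (−0.76 ± 0.17, adjusted p = 0.014). E2f1, an activator of S phase, averaged 22.7 ± 1.21 in KO and 14.3 ± 2.82 in Het (0.66 ± 0.15, adjusted p = 0.0121).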

How the data were processed

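Gene-level values of 18 libraries of Zfp541 KO and Het mice were used. The RPKM values of P14 testis and P18 spermatocytes and the FPKM values of P18 testis were computed and deposited by the authors, per the file headers. The submitters' processing notes name the build GRCm38 and the tools STAR 2.6.1a, edgeR 3.28.1, featureCounts and CASAVA 1.9; the strand setting is not given in the sources used here. The values were not counts, so they were tested with limma 3.58.1 (R 4.3.3, trend and robust options) on log2(value + 0.5), not with a count test, after trimmed-mean (TMM) rescaling of the libraries of each fit. The trims were 30% and 5%.

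Genes at 1 or more in at least 3 libraries of a fit were tested, and p was adjusted by Benjamini-Hochberg over all of them, with a threshold of 0.05. Fits held 6 libraries within a set and 12 across sets, for 9 comparisons. Across ages, genes whose implied length differed between tables were left out (Cdk1, Cdk2, Cdc25c, Pkmyt1, Incenp, Espl1 and Bora among the members). Below 30 reads, 93.33% to 99.18% of a library's values were whole reads within 0.02 once merged exon lengths of GENCODE M21 were applied, and these recovered reads give the depths and were tested with voom as an alternative. One read on a 1 kb gene was worth 0.0473 to 0.108. Older symbols were matched to current ones through RefSeq synonyms (447 at P14, Sgo1 and Sgo2a among them). No libraries were duplicates. Deviations of same-numbered replicates correlated weakly (r −0.029 to 0.236), and the replicate number was used as a block only in an alternative. Each library still correlated best with its own number in 6 of 6 at P14 and 6 of 6 in spermatocytes, and in 2 of 6 in P18 testis. The fitting scripts were tested on simulated data. All members could be named, and of each pathway list at most 2 genes in each direction with the largest change per comparison.

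The members, gene lists and tests were chosen with earlier results of these data known. Alternatives were other pseudocounts (0.1 and 1), filters and scalings, voom, the replicate block, pooled fits and leaving out each library. Rescaling over all 18 libraries, or within each set for the 2 interactions, was added after seeing the data. Python 3.11.15, numpy 2.4.6, pandas 2.3.3 and matplotlib 3.10.9 were used.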

Additional observations from a re-analysis of the deposited data

Results flagged for a closer look

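For 12 members the KO effect differed between fractions or between ages by the interaction test in limma (adjusted p under 0.05). Between P18 spermatocytes and P18 testis the KO minus Het difference was higher in spermatocytes by 0.97 for Plk1, 0.76 for Wee1, 0.73 for Cdc20, 0.71 for Incenp, 0.63 for Foxm1 and 0.61 for Ccnb1 on the log2 scale. Of these, Cdc20 was lower in KO testis and level in spermatocytes, while the other 5 were higher in KO spermatocytes and passed neither way in testis. The sizes come from a fit with both fractions rescaled together. Each is larger than the gap between the differences given for that gene within the sets. Between P18 and P14 testis the KO minus Het difference changed by −3.20 for Ccna1, −0.92 for Nek2, −0.83 for Aurka, −0.81 for Ccnb2, −0.47 for Cdca8 and −0.39 for Bub3. Ccna1 was near the limit of detection at P14, and its call here ended with voom on recovered reads. Spermatogonial markers summed to 572 to 678 in KO and 334 to 449 in Het spermatocytes. In the interaction with fraction 0 of these 12 markers passed, with a median of 0.43 beside 0.12 over all genes. In P18 testis, 4 of 11 tested were higher in KO. Late pachytene and diplotene markers, which include Ccna1 and Aurka, moved beside the second set, with 7 of 8 tested lower in the interaction with age. The part of either list in the result was not tested.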

How the results depend on the processing

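The count of members called in P14 testis was 0 by limma in every alternative run and 1 by voom on recovered reads. Leaving out 1 library at a time gave 0 to 0 members at P14, 9 to 16 in P18 testis, 12 to 25 in P18 spermatocytes, 4 to 13 for age in KO, 22 to 26 for age in Het, 32 to 35 for spermatocytes against testis in KO and 27 to 31 in Het. The 6 interactions with fraction became 0 with a pseudocount of 1, 0 with no filter, 0 with median-of-ratios scaling, 0 with the replicate block, 0 with one TMM over all 18 libraries, 0 with TMM within each set, and 0 to 6 without 1 library. The 6 interactions with age became 1 in one fit over 18 libraries and 2 to 10 without 1 library. For age in KO the 8 calls became 4 with no filter and 16 as deposited, where Wee1 (0.059), Mastl (0.024) and Arpp19 (0.085) reversed; Arpp19 also reversed for spermatocytes against testis in KO as deposited (−0.0029). The cause was not tested. With the replicate block the pairing gave 0 members at P14, 15 in P18 testis, 21 in spermatocytes (11 higher and 10 lower), 0 and 5 interactions with fraction and age, 9 for age in KO, 25 for age in Het and 30 for spermatocytes against testis in Het; each library correlated best with its own number in 6 of 6 libraries at P14, 2 of 6 in P18 testis and 6 of 6 in spermatocytes, a hint from the data and not from the design. With 3 libraries a group, leaving out single libraries ended calls of large differences too, among them Aurkc (−1.55) and Pttg1 (−0.67) in P18 testis and Ccnb2 (−0.64) in spermatocytes, each without any of 4 libraries. The call of Ccna1 in P18 testis ended with voom on recovered reads, and without a Het library the gene was not tested. Differences of Wee2 in all sets and of Ccna1 at P14 were not detectable at this depth.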
